A study of Mus musculus with 59 samples.

Results

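Fbp1 and Fbp2, the fructose bisphosphatase genes of the mouse, were read from every gene-level table of normalized read counts made from haematopoietic cells with and without Daxx. Daxx is a histone chaperone that places the histone variant H3.3 into chromatin, and Pu.1, encoded by Spi1, is a myeloid and lymphoid transcription factor. The pair makes up 2 of the 51810 genes listed in each table with a stated time (51812 in the untimed tables) and was chosen because its levels differed between Daxx-KO and WT cells, so those differences are given as descriptions with no test.

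The 59 samples were bone marrow cells of C57BL/6 mice that all carried a single copy of a Cre transgene, and 36 libraries could be tied to a genotype. The untimed samples were KLS cells (Lin-Sca-1+c-Kit+ stem and progenitor cells) and granulocyte-monocyte progenitors (GMPs) of Daxx +/+ Cre +/- (WT) and Daxx F/F Cre +/- (Daxx-KO) genotype, with 2 libraries a group, and their labels name no Cre line, time or treatment. The methods describe RNA-seq of KLS cells and GMPs at 3 and 24 weeks after induction, and also from irradiated recipients of Mx1Cre marrow. No label says which samples came from recipients. The untimed samples are the only KLS cells and GMPs here with no stated time, so they may be these. At 3 weeks post induction (wpi) of Mx1Cre, which is expressed from an interferon-responsive promoter and was switched on with pI:pC (a synthetic double-stranded RNA), KLS cells and GMPs came from 3 WT, 3 Daxx-KO and 2 Daxx F/F mice that were also Pu.1 F/F, with Cre +/- (labelled DKO), the same mice for both cell types by the mouse numbers in the headers. A separate Mx1Cre line gave 2 Pu.1 +/+ Cre +/- (WT) and 2 Pu.1 F/F Cre +/- (labelled Pu.1-KO) mice at 3 wpi, again with KLS cells and GMPs of the same mice. The remaining libraries were KLS cells and GMPs of 6 mice at 24 wpi (WT, Daxx-KO and DKO), multipotent progenitors MPP3 and MPP4 of 4 mice at 3 wpi (WT and Daxx-KO), and 7 libraries of long-term stem cells (LT-HSC) at 3 days after induction of RosaCreER, a Cre made in all tissues and activated by tamoxifen (WT, Daxx-KO and Daxx +/F). The labels fixed no genotype for 23 of these columns, which are described singly. Mx1Cre also recombines in other interferon-responsive tissues, so the floxed alleles are not deleted in blood cells alone, and recombination need not reach every cell. Replicates are separate mice where headers give a mouse number, and for the untimed samples p-values measure only the spread between libraries.

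Fructose bisphosphatase removes a phosphate from fructose 1,6-bisphosphate, the step of gluconeogenesis that opposes phosphofructokinase in glycolysis. Fbp1 is known as the form of liver and kidney and Fbp2 as the form of skeletal muscle, and neither is a usual marker of blood stem cells. Fructose 2,6-bisphosphate, made and removed by the Pfkfb enzymes, inhibits fructose bisphosphatase and activates phosphofructokinase.

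The genes lie side by side on chromosome 13 and are read from the minus strand. In GRCm38, the build named mm10 in the labels, Fbp2 (ENSMUSG00000021456.8) spans chr13:62836877-62858422 and Fbp1 (ENSMUSG00000069805.10) spans chr13:62864753-62888282. The stretch between them is 6330 bases, their start sites are 29860 bases apart, and the whole pair covers 51406 bases. Each gene has 7 exons, which cover 1702 bases for Fbp1 and 1469 bases for Fbp2, and 0 other genes overlap either in the GENCODE annotation used here. Their coding sequences, 1017 and 1020 bases, are 70.5% identical over 1015 aligned bases with a longest identical run of 23 bases. The transcripts share 4 stretches of 20 bases and 0 stretches of 30 bases, so few read positions could be exchanged between them.

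The bases upstream of each start site are shown because the genes are adjacent and were both high in the same libraries. They come from RefSeq (GRCm38.p6), run 5′ to 3′ on the minus strand, and end at the base before the GENCODE start. Capitals in the Fbp1 sequence (chr13:62888283-62888532) mark a GC box, GGGCGG, and a Pu.1-type core, GAGGAAGT, and capitals in the Fbp2 sequence (chr13:62858423-62858650) mark an E-box, CACGTG. The Fbp2 sequence is printed over 228 bases, because GENCODE places the start further upstream than RefSeq.
Fbp1: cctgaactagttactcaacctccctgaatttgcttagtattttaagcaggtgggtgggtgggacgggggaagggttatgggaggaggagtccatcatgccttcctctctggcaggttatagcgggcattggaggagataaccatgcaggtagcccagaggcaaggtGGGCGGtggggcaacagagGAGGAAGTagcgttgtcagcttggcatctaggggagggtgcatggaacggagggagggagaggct
Fbp2: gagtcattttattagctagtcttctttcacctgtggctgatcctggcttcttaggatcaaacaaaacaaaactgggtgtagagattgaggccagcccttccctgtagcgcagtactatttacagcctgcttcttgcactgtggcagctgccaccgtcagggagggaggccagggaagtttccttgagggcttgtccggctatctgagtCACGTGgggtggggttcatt

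Both strands of the 250 bases before the RefSeq start were searched for 4 motifs, whose letters were chosen after these sequences were seen and whose matches here do not overlap. Positions are counted from that start. GAGGAAGT occurred at 1 place before Fbp1, starting 65 bases upstream, at 0 places before Fbp2, and in 2.44% of the 32851 promoters of the same length. CACGTG occurred at 1 place before Fbp2, starting 42 bases upstream of the RefSeq start, which lies inside the GENCODE gene, at 0 places before Fbp1, and in 6.02% of promoters. GGGCGG occurred before Fbp1 alone, starting 84 bases upstream, and in 32.7% of promoters, whereas TATAAA was in neither window and in 12.4% of promoters. Each window held 5 CpG sites against a median of 6 over all promoters, and the GC content was 56.4% for Fbp1 and 52.4% for Fbp2 against a median of 52.4%. A letter match is a description of the sequence and shows no binding.

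Gene reads per library ran from 3045852 to 30136629 over all tables. Daxx itself fell in all 4 comparisons of Daxx-KO with WT: by limma on log2(value + 1) with Benjamini-Hochberg adjustment it dropped by 1.98 (SE 0.29, adjusted p = 0.00158) in untimed KLS cells, by 2.42 (adjusted p = 0.000984) in untimed GMPs, by 2.44 (adjusted p = 0.00373) in KLS cells at 3 wpi and by 3.18 (adjusted p = 0.000763) in GMPs at 3 wpi. Spi1 was not lower beyond the spread in 3 of the 4 groups with floxed Pu.1: its mean was 3162 in KLS cells labelled DKO against 1549 in Daxx-KO and 1888 in WT, 3417 in GMPs labelled DKO against 3694 in Daxx-KO, and 2114 against 2422 in the KLS cells of the Pu.1 line with overlapping libraries. In the GMPs of that line it was 2648 against 3664. The libraries are therefore called by their labels, and a gene-level count can miss the loss of a single exon. The summed level of 8 KLS markers was 8988 to 9539 in untimed Daxx-KO KLS cells against 38552 to 40078 in WT. By limma 7 of them were called lower and 1, Ly6a, higher by 1.94. The sum of 8 GMP markers was 15797 to 19234 against 9190 to 9246, with 5 called higher and 2 lower. Over all genes 10.6% were called higher and 12.5% lower there.

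In the untimed libraries Fbp1 was low in WT and among the most abundant transcripts in Daxx-KO. In KLS cells the normalized count of Fbp1 was 74.0 and 43.1 in the WT libraries (43 and 25 reads) and 2623 and 3098 in the Daxx-KO libraries (2398 and 10222 reads). The lowest Daxx-KO value was 35.5 times the highest WT value, and the means were 2860.4 ± 335 and 58.5 ± 21.9 (SD, n = 2 each), a ratio of 48.9. Over all genes 23.1% were called in that comparison in either direction, a share from which nothing is read here because the pair was chosen on it. In RPKM, the recovered reads divided by exon length and by the gene reads of the library, Fbp1 stood at 222 and 265 in Daxx-KO, above 99.5% and 99.6% of the genes with a read, and at 6.55 and 3.73 in WT, above 64.7% and 48.8%. The gene thus stood in the middle of the expressed genes in WT and at the top of them in Daxx-KO.

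In untimed GMPs Fbp1 was 72.9 and 70.5 in WT (56 and 78 reads) and 1192 and 1415 in Daxx-KO (588 and 3468 reads). The groups did not overlap, the means were 71.7 ± 1.68 and 1303 ± 157 (SD, n = 2 each), and the ratio was 18.2, where 33% of all genes were called. The WT level was close to that of KLS cells in RPKM, at 6.66 and 6.48, but the Daxx-KO level of 102 and 118 was below that of both KLS libraries.

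Fbp2 was almost silent in WT and plainly expressed in Daxx-KO. In KLS cells the WT libraries held 1 and 0 reads (normalized counts 1.72 and 0) and the Daxx-KO libraries 621 and 2250 reads (679 and 682). Reads pooled over each group and divided by the pooled scaling gave a ratio of 792 with a 95% interval of 142 to 31276, which covers counting error only. In GMPs the WT libraries held 1 and 2 reads (1.30 and 1.81) against 237 and 950 in Daxx-KO (481 and 388), a ratio of 252 (86.0 to 1224). The width of both intervals comes from the 1 and 3 WT reads. Fbp2 passed the filter on low values in these tables because of the Daxx-KO libraries alone.

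Where both were high, Fbp1 exceeded Fbp2. In RPKM, Fbp2 was 66.6 and 67.6 in the Daxx-KO KLS libraries, beside 222 and 265 for Fbp1, and in the Daxx-KO GMP libraries it stood at 46.7% and 31.7% of Fbp1. In WT it stood at 2.69% and 0% in KLS cells and at 2.07% and 2.97% in GMPs. Counted from the largest fitted rise, Fbp1 ranked 26 and Fbp2 ranked 2 among 13508 genes in KLS cells, and 48 and 5 among 12744 genes in GMPs, which describes the choice of the pair.

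**Figure D1:**
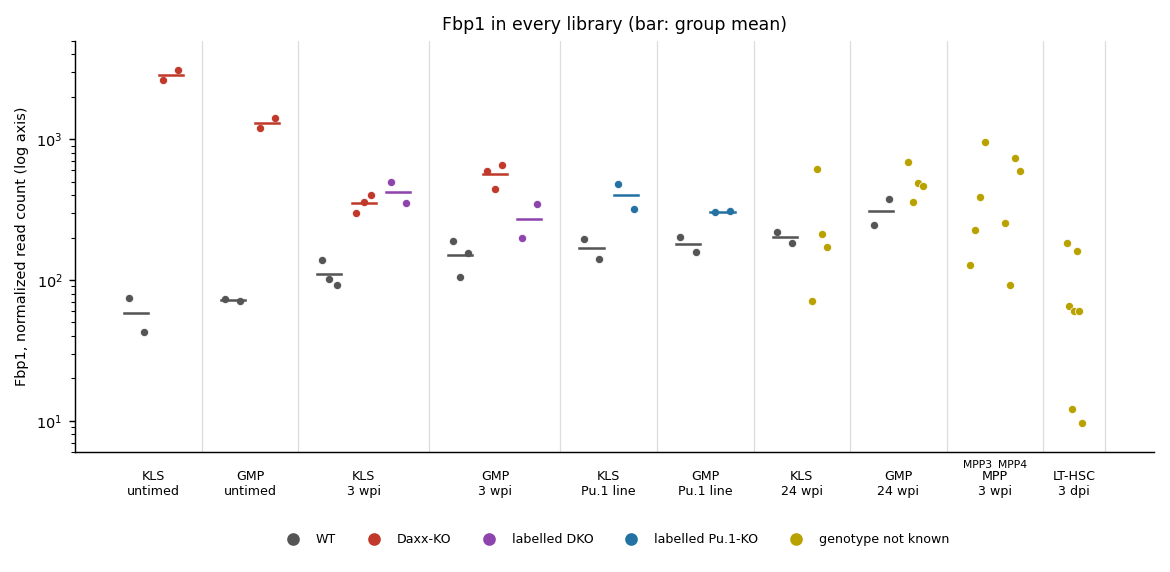
Normalized count of Fbp1 (log axis) in each library of each table, with points coloured by genotype and bars at group means. The untimed Daxx-KO points (1192 to 3098) lie far above the WT points of their tables (43.1 to 74.0), and at 3 wpi Daxx-KO points (299 to 653) lie above WT points (92.0 to 189) by a smaller margin.

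**Figure D2:**
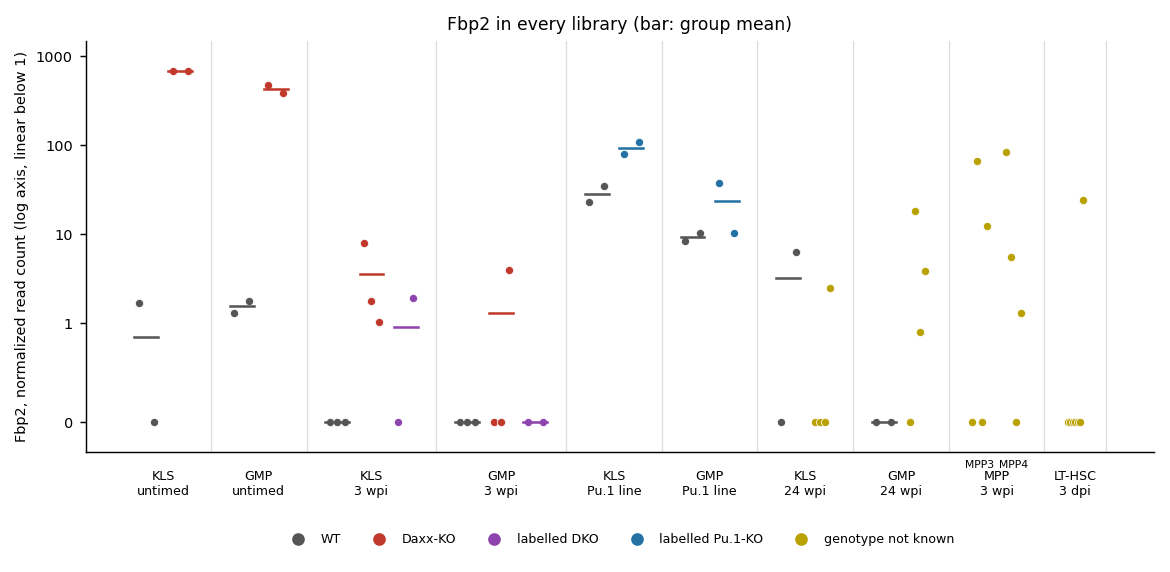
Fbp2 in the same libraries as in the plot of Fbp1. The 4 untimed Daxx-KO libraries lie at 388 to 682, and most other libraries are at or near 0 apart from the Pu.1 line and some multipotent progenitor libraries.

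Markers of the tissues that normally express these genes stayed low in the untimed libraries. The summed normalized count of 10 hepatocyte genes was 3.28 to 6.06 in Daxx-KO KLS cells and 5.17 to 10.3 in WT, and 7 of the 10, among them Ttr, Fgb and Serpina1a, were at 0 in both Daxx-KO libraries. In untimed GMPs it was 4.06 to 4.89 against 2.60 to 3.61, with Alb and Apoa1 at 0 in all 4 libraries. The sum of 10 skeletal muscle genes was 26.3 to 32.4 against 25.8 to 44.8 in KLS cells and 34.5 to 35.9 against 20.8 to 32.5 in GMPs, and the myosin gene Myh1 was at 0 in every untimed library. Markers of blood lineages differed in both directions. In untimed KLS cells 10 monocyte and macrophage genes summed to 1040.3 to 1042 in Daxx-KO and 296 to 382 in WT, and 4 of the 5 that passed the filter were called higher, where 10.6% of all genes were. The 10 B cell genes were at 154 to 173 in Daxx-KO and 872 to 1824 in WT, with 1 called higher and 3 lower of 5 where 12.5% of all genes were lower, and the neutrophil sums overlapped, at 948 to 1610 and 37.9 to 6181. In untimed GMPs the monocyte genes ran the other way, at 1250.3 to 1332 in Daxx-KO and 2686 to 2857 in WT (2 of 6 called higher and 3 lower), and 10 neutrophil genes summed to 35068 to 50520 and 4734 to 6603 (4 of 10 called higher and 3 lower). Of all genes in GMPs 16.6% were called higher and 16.5% lower, and B cell sums overlapped there. Of 3 erythroid genes that passed the filter, 1 was called lower in untimed KLS cells and 3 in untimed GMPs, with 0 higher. The part of these populations, and of the lower KLS marker sum, in the level of Fbp1 and Fbp2 was not tested. In such sorted pools more cells that express a gene and more RNA per cell cannot be told apart.

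At 3 wpi the pair separated: Fbp1 was again higher in Daxx-KO, at a smaller size, and Fbp2 stayed within a few reads. In KLS cells Fbp1 was 139, 102 and 92.0 in WT and 299, 360 and 402 in Daxx-KO. The groups did not overlap, with the lowest Daxx-KO value 2.14 times the highest WT value, and the means of 353 ± 51.8 and 111 ± 25.1 (SD, n = 3 each) gave a ratio of 3.18, where 0.257% of all genes were called (0.184% higher and 0.0724% lower). Fbp1 stood above 54.4% to 62.0% of the genes with a read in WT and above 80.1% to 85.0% in Daxx-KO.

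In GMPs at 3 wpi Fbp1 was 189, 106 and 155 in WT and 594, 442 and 653 in Daxx-KO. These too did not overlap, the nearest values being 2.34 times apart, and the means of 563 ± 109 and 149.8 ± 41.8 (SD, n = 3 each) gave a ratio of 3.76, where 0.0948% of all genes were called (0.0656% higher and 0.0292% lower). Counted from the largest fitted rise, Fbp1 ranked 331 of 15200 in KLS cells and 87 of 13714 in GMPs.

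Fbp2 had 7, 2 and 1 reads in the Daxx-KO KLS libraries (7.92, 1.79 and 1.05) and 0 in all 3 WT libraries. Set against a floor of 3 reads over the WT group, the Daxx-KO rate was 3.45 times that floor. In GMPs 4 reads fell in 1 Daxx-KO library (3.95), with 0 in the other Daxx-KO libraries and in WT. That rate was 1.30 times the same floor and rests on 1 library. These folds leave out counting error on the Daxx-KO reads, so they are not lower bounds. Fbp2 was below the filter on low values in both tables and was not fitted. In the Daxx-KO KLS library with 7 reads it stood at 3.07% of Fbp1 per kilobase, against 25.5% or more in untimed Daxx-KO cells. The sizes at 3 wpi and in the untimed libraries are set side by side without a test, since the tables were normalized separately.

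B cell markers were higher on average in Daxx-KO at 3 wpi: the sum of 10 genes was 1582 to 33482 against 492 to 769 in KLS cells and 722 to 9514 against 211 to 657 in GMPs. By limma 0 of 9 were called in either, with 7 and 5 at a p under 0.05 before adjustment, and DESeq2 called 3 and 1 (edgeR 0). Over all genes limma called 0.257% in KLS cells and 0.0948% in GMPs, and DESeq2 called 332 of 25694 and 67 of 24527. An unadjusted p under 0.05 was reached by 1777 of 15200 and 433 of 13714 genes. Hepatocyte sums in KLS cells were 124 to 279 with Daxx-KO and 113 to 231 with WT, and 71.3 to 150.2 and 160.0 to 442 in GMPs. Alb was at 0 in all Daxx-KO libraries. Ttr was the 1 hepatocyte gene that passed the filter in each. It differed by 0.37 in KLS cells and by −1.31 in GMPs and was not called by limma. Skeletal muscle sums were 68.2 to 177 against 44.0 to 63.6 in KLS cells and 37.1 to 46.9 against 34.4 to 45.7 in GMPs. The part of these in the level of Fbp1 was not tested.

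The libraries labelled DKO ask how Fbp1 stands where Pu.1 was floxed as well. In KLS cells Fbp1 was 498 and 351 in them, within or above the Daxx-KO range of 299 to 402, and the difference was 0.25 on the log2(value + 1) scale (95% interval −0.35 to 0.85, limma adjusted p = 0.592, with 15.4% of genes called). Against WT the ratio of means was 3.82 and the groups did not overlap. In GMPs the values of 198 and 346 lay below all 3 Daxx-KO values, with a difference of −1.08 (95% interval −1.83 to −0.34) that did not pass the adjustment (limma adjusted p = 0.343, with 0.0583% of genes called). Those GMP values averaged 1.82 times the WT mean, and the lower was 1.05 times the highest WT value. Both comparisons share mice, and the difference between the cell types was not tested. Each also uses the Daxx-KO libraries on which the pair was chosen. Their intervals and p-values are therefore not independent of that choice, which favours a lower value in DKO.

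Fbp2 had 0 and 2 reads in KLS libraries labelled DKO and 0 in both GMP libraries. Against Daxx-KO, where 10 and 4 reads were found, these counts allow ratios of 0.0302 to 1.33 in KLS cells and up to 2.34 in GMPs, so a difference was not detectable at this depth. Daxx was at 18.5% of WT in KLS cells labelled DKO and 18.4% in Daxx-KO, and at 10.9% and 11.1% in GMPs. Neutrophil genes summed to 138177 to 169734 in KLS cells labelled DKO against 979 to 6413 in Daxx-KO, with 6 of 10 called higher by limma (8.17% of all genes were), 4 called by edgeR and 1 by DESeq2. The 8 GMP markers were at 114593 to 119195 in those libraries against 16741 to 23020 (4 called higher and 1 lower), and the 8 KLS markers at 27690 to 36414 against 38653 to 72144 (2 called lower). The part of these in Fbp1 and Fbp2 was not tested.

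In the Pu.1 line, where Daxx is not floxed, both genes were detected in every library. Fbp1 in KLS cells was 195 and 140 in WT and 484 and 318 in libraries labelled Pu.1-KO, a difference of 1.24 (SE 0.60, 95% interval 0.07 to 2.41) that did not pass the adjustment (limma adjusted p = 0.172, with 0.469% of genes called higher and 0.341% lower, 0.81% in all). In GMPs Fbp1 was 203 and 159 in WT and 302 and 309 in Pu.1-KO, 0.76 apart (SE 0.30, 95% interval 0.17 to 1.35, limma adjusted p = 0.0613, with 9.15% of genes called higher and 8.49% lower). Neither pair of groups overlapped. The GMP result lies near the threshold. It was called with TMM scaling (0.83, limma adjusted p = 0.0315) and with edgeR's quasi-likelihood test on recovered reads (0.85, adjusted p = 0.0443). In 6 other settings it was not called, at differences of 0.59 to 0.93. The limma fits without Pu.1-KO library a or b gave 0.78 and 0.74.

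Fbp2 in this line had 17 and 41 reads in WT KLS cells and 68 and 169 in Pu.1-KO (normalized counts 23.0, 34.6, 79.5 and 108). The difference of 1.68 (SE 0.82) did not pass the adjustment (limma adjusted p = 0.179). In GMPs it had 8 and 8 reads in WT and 49 and 12 in Pu.1-KO (8.47, 10.4, 37.7 and 10.3), with overlapping groups and a difference of 1.01 (95% interval −0.82 to 2.83, limma adjusted p = 0.441). In RPKM the WT KLS level of 0.781 and 1.46 was above that of every WT library of the Daxx line, whose highest was 0.193.

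Other genes of liver and muscle were present in the same libraries. The hepatocyte sum was 141 and 264 in WT and 433 and 928 in Pu.1-KO KLS cells, and the muscle sum 310 and 613 against 619 and 948, with none of the markers at 0. In GMPs the hepatocyte sum was 132 and 70.5 against 203 and 138, and the muscle sum 185 and 154 against 413 and 253. These libraries also held a read for 24539 to 30291 genes, against 17066 to 22416 in the untimed tables and 18077 to 20424 in the Daxx line at 3 wpi. The part of this low-level signal in Fbp1 and Fbp2 was not tested. Daxx was 478 and 295 in the Pu.1-KO KLS libraries against 920.3 and 625 in WT, and at 79.9% of WT in the GMP libraries. Neutrophil genes summed to 167475 to 170203 in Pu.1-KO GMPs against 29569 to 37235 in WT, with 9 of 10 called higher where 9.15% of all genes were. In the same GMPs 6 of 9 B cell genes were called higher, and the 8 GMP markers stood at 107095 to 189235 against 267966 to 292709 (5 called lower, where 8.49% of all genes were). In KLS cells the 8 KLS markers stood at 14886 to 36265 in Pu.1-KO against 59732 to 72028 in WT (1 called lower). Of 9 erythroid genes 3 were called lower and 0 higher in those KLS cells, where 0.341% of all genes were lower. In the GMPs 4 of 9 erythroid genes were called lower and 3 higher. The part of these in Fbp1 and Fbp2 was not tested.

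At 24 wpi the 2 WT mice had Fbp1 at 219 and 183 in KLS cells and at 247 and 374 in GMPs. The other 4 mice are Daxx-KO or DKO, but their columns could not be told apart, and they are named a to d. In KLS cells they had Fbp1 at 71.0, 617, 214 and 171 with Daxx at 148, 213, 129 and 104, so 1 mouse was far above the WT values while Daxx was low in all 4 against 976 and 807 in WT. In GMPs of the same mice Fbp1 was 683, 357, 487 and 465, with 3 of the 4 above both WT values. Fbp2 was at 0 or 8 reads in WT, at 0 to 3 reads in the KLS libraries of the other mice and at 0, 20, 1 and 5 reads in their GMPs.

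Multipotent progenitors of 4 mice, named a to d, had Fbp1 at 128, 225, 389 and 957 in MPP3 and at 255, 92.8, 734 and 593 in MPP4. Daxx in the same order was 477, 470, 249 and 161 in MPP3 and 299, 556, 194 and 92.4 in MPP4. Mice c and d had lower Daxx and higher Fbp1 than a and b in both cell types, and since their genotypes are not known here no groups were made from them. MPP4 exceeded MPP3 by 1.99 and 1.89 times in mice a and c and was 0.412 and 0.619 times MPP3 in b and d, so no order of the cell types held.

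Fbp2 in these progenitors was 0, 66.0, 0 and 12.3 in MPP3 and 85.3, 5.52, 0 and 1.30 in MPP4. The highest values, in MPP4 of mouse a (96 reads) and MPP3 of mouse b (102 reads), stood in the libraries with the most genes with a read of their cell type (25435 and 26512). Their hepatocyte sums were 571 and 416 against 0.713 to 21.1 in the others, and their muscle sums 858 and 691 against 17.1 to 125. The part of that signal in Fbp2 was not tested.

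LT-HSC libraries of 7 mice, named a to g, had Fbp1 at 182, 65.1, 12.0, 60.1, 161, 59.8 and 9.65. Daxx in the same order was 384, 237, 81.7, 69.5, 102, 198 and 196, so the order of Fbp1 was not that of Daxx in either direction. Fbp2 was 0 in 6 of them and 24.1 (20 reads) in g, where the hepatocyte sum was 0 and the muscle sum was 104.

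Set in order in RPKM, WT levels of Fbp1 spanned a narrower range over the tables than Daxx-KO levels did. The methods give different library kits for transplanted and steady-state cells and the labels give a single kit, so kit and setting may differ between the untimed and the other tables and cannot be told apart from the differences between them. WT groups ran from 4.93 ± 1.11 (KLS 3 wpi, n = 3), 4.95 ± 0.578 (KLS 24 wpi, n = 2), 5.14 ± 2.00 (untimed KLS, n = 2) and 5.41 ± 0.430 (KLS of the Pu.1 line, n = 2) to 6.57 ± 0.126 (untimed GMPs, n = 2), 6.79 ± 1.61 (GMPs 3 wpi, n = 3), 7.83 ± 1.60 (GMPs of the Pu.1 line, n = 2) and 8.09 ± 2.47 (GMPs 24 wpi, n = 2). Neighbours in that order overlapped, except that the KLS cells of the Pu.1 line lay below the untimed GMPs, and every KLS mean was below every GMP mean. Above them came GMPs labelled DKO (12.6 ± 4.70), Pu.1-KO GMPs (15.6 ± 2.10), Daxx-KO KLS cells at 3 wpi (15.8 ± 2.46), KLS cells labelled DKO (17.2 ± 2.98) and Pu.1-KO KLS cells (17.8 ± 1.24), each overlapping its neighbours. Daxx-KO GMPs at 3 wpi (26.9 ± 6.42), untimed Daxx-KO GMPs (109.8 ± 11.2) and untimed Daxx-KO KLS cells (244 ± 30.5) followed, each clear of the group below it.

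KLS cells and GMPs of the same mouse can be set side by side as a share of their gene reads. Fbp1 was higher in GMPs than in KLS cells in all 3 WT mice at 3 wpi (1.36, 1.14 and 1.68 times), in all 3 Daxx-KO mice (2.03, 1.31 and 1.78 times), in both WT mice of the Pu.1 line (1.57 and 1.31 times) and in both WT mice at 24 wpi (1.18 and 2.16 times). The mice labelled DKO had ratios of 0.479 and 1.05 and the Pu.1-KO mice ratios of 0.916 and 0.835. Of the 4 other mice at 24 wpi the ratios were 10.1, 0.652, 2.37 and 2.78. Untimed libraries carry no mouse number shared between cell types.

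Daxx-KO libraries with the larger Fbp1 difference were not those with less Daxx. Daxx was at 24.8% of WT in untimed Daxx-KO KLS cells and at 18.4% at 3 wpi, where Fbp1 was 48.9 and 3.18 times WT. In GMPs it was at 18.9% and 11.1%, where Fbp1 was 18.2 and 3.76 times WT. At 3 wpi Daxx-KO KLS libraries 1, 2 and 3 had Daxx at 82.6, 102 and 72.2 and Fbp1 at 299, 360 and 402, and GMP libraries a, b and c had Daxx at 83.0, 55.1 and 78.1 and Fbp1 at 594, 442 and 653. Within neither set of 3 did the order of Daxx give the order of Fbp1. For correlations over the 36 libraries with a genotype, log2(value + 1) was centred on the mean of its table, so they describe differences within tables. The Pearson correlation of these centred values was −0.748 between Fbp1 and Daxx (−0.804 without the untimed tables) and −0.581 between Fbp2 and Daxx (−0.441). These describe libraries that share tables and fall into groups by genotype, in which the Daxx deletion itself sets the level of Daxx, so no test was made.

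**Figure D3:**
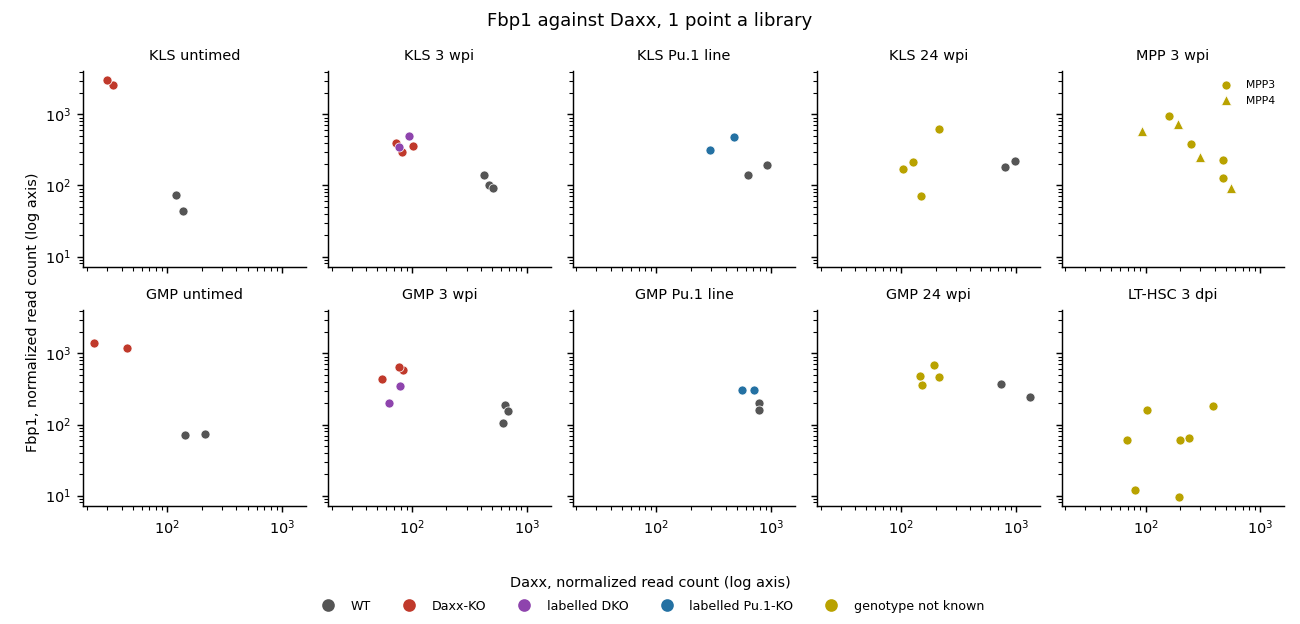
Fbp1 against Daxx in each library, both as normalized counts on log axes. In the untimed and 3 wpi tables the Daxx-KO libraries (Daxx 22.8 to 102) sit to the left of and above the WT libraries of the same table (Daxx 119 to 688).

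The same measure named the genes whose pattern over those 36 libraries was most like that of the pair, out of 11643 genes. For Fbp1 they were Nrg4 (0.930), Pde11a (0.893), Gm35572 (0.857), Fbxo22 (0.853) and Plekhh2 (0.847). For Fbp2 they were Sgcz (0.918), Pde11a (0.900), Plekhh2 (0.857), Cacna1b (0.846) and Nrg4 (0.827), and Fbp1 and Fbp2 correlated at 0.885 with each other. Without the untimed tables the values were between 0.385 and 0.742 for Fbp1, between 0.208 and 0.514 for Fbp2 and 0.447 between the pair. Nrg4, a growth factor of the neuregulin family, averaged 3576 with Daxx-KO and 149 with WT in untimed KLS cells, and 899 and 546 at 3 wpi.

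The genes around the pair were taken as the 5 nearest protein-coding genes on each side. In untimed KLS cells 4 of the 9 that passed the filter rose and 0 fell, where 10.6% of all genes rose: Platr25 by 1.28 (SE 0.12, limma adjusted p = 0.000134), 6720489N17Rik by 1.17 (adjusted p = 0.00478), the zinc finger gene Zfp935 by 0.75 (adjusted p = 0.0158) and 2010111I01Rik by 0.42 (adjusted p = 0.0221). Platr25, 6720489N17Rik and Zfp935 lie beyond Fbp2, at 76167, 212694 and 278365 bases from the pair, and 2010111I01Rik lies beyond Fbp1 at 76610 bases. Platr25 had the largest change of the neighbours called there, 1445 ± 165 against 591 ± 22.6 (SD, n = 2 each). Without Daxx-KO library 1 or 2 the calls of 6720489N17Rik (limma adjusted p = 0.119 and 0.168) and 2010111I01Rik (adjusted p = 0.219 and 0.163) were lost, and 2010111I01Rik was also lost without WT library 1 or 2 (adjusted p = 0.108 and 0.0507). Gm5141, the nearest gene at 51068 bases, was not called.

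In untimed GMPs 1 neighbour rose, Zfp935 by 0.74 (limma adjusted p = 0.00735), and 2 fell, Zfp934 by 0.73 (adjusted p = 0.0075) and the hedgehog receptor Ptch1 by 0.42 (adjusted p = 0.0494), where 16.6% of all genes rose and 16.5% fell. At 3 wpi limma called 0 of 9 neighbours between Daxx-KO and WT in either cell type, while 1 and 0 had a p under 0.05 before adjustment and neither edgeR nor DESeq2 called any. Over all genes limma called 0.257% there in KLS cells and 0.0948% in GMPs. In KLS cells labelled DKO 2 of 9 fell against Daxx-KO, where 7.22% of all genes fell. They were Platr25, by 1.31 (limma adjusted p = 0.00165), and Gm5141, by 1.21 (adjusted p = 0.0431). In Pu.1-KO GMPs 1 of 10 fell against WT, 2010111I01Rik by 1.05 (limma adjusted p = 0.000507). Of all genes 8.49% fell there, so a count of 1 does not set the neighbours apart. Among the neighbours Zfp935 rose in both untimed cell types, and its call in KLS cells was lost with DESeq2 (adjusted p = 0.0692) and without Daxx-KO library 1 or 2 (limma adjusted p = 0.176 and 0.212). In GMPs its call was lost without WT library 1 or 2 (limma adjusted p = 0.0593 and 0.0547), that of Zfp934 without WT library 2 (adjusted p = 0.104), and that of Ptch1 without any single library (adjusted p = 0.0632 to 0.293). The calls of Gm5141 and 2010111I01Rik in the other comparisons were lost too, the first without Daxx-KO library 1 or 3 or either DKO library (limma adjusted p = 0.122 to 0.165) and the other without WT library a or b (adjusted p = 0.207 and 0.538).

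**Figure D4:**
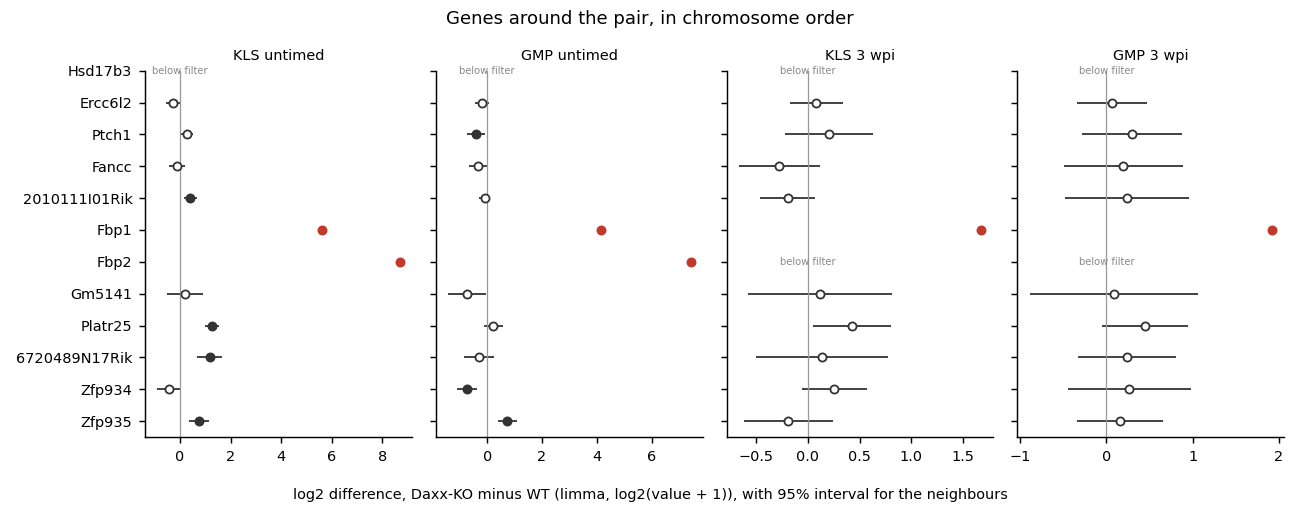
Log2 difference between Daxx-KO and WT of Fbp1, Fbp2 (red) and the 10 nearest protein-coding genes in chromosome order, with 95% intervals for the neighbours, filled points where limma called them and a scale of its own in each panel. Fbp1 and Fbp2 stand to the right of all neighbours in the untimed tables, where the neighbours lie between −0.74 and 1.28.

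A list of 9 genes held Daxx, Spi1 and genes for proteins that work with Daxx or at silenced chromatin. In untimed KLS cells 3 were called higher and 1 lower, where 23.1% of all genes were called. In untimed GMPs 3 were called higher and 2 lower, where 33.0% of all genes were called. Daxx, the deleted gene, is among the lower ones in both. Atf7ip, a partner of the H3K9 methyltransferase Setdb1, rose in untimed KLS cells and GMPs by 0.72 and 0.73 (limma adjusted p = 0.00104 and 0.00045). Trim28, a co-repressor that recruits Setdb1, rose by 0.52 in KLS cells (limma adjusted p = 0.0217) and fell by 0.55 in GMPs (adjusted p = 0.00325). Setdb1 itself was at −0.16 and −0.17 and was not called in either. Atrx, the remodeller that pairs with Daxx, rose by 0.50 in GMPs (limma adjusted p = 0.00164), and Spi1 rose by 1.42 (adjusted p = 6.57e-05) in KLS cells and by 0.86 (adjusted p = 0.00016) in GMPs. At 3 wpi Daxx itself was the 1 called gene among the 9 in each cell type. Of all genes 0.257% were called there in KLS cells and 0.0948% in GMPs.

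The other genes of glucose metabolism, 40 in a list chosen for the pathway, moved in both directions. In untimed KLS cells 32 passed the filter, 7 rose and 1 fell (25.0% called against 23.1% of all genes), with a median difference of 0.24 against 0.03 over all genes. Hk3, a hexokinase of white blood cells that starts glycolysis, rose by 3.39 (SE 0.14, limma adjusted p = 4.54e-06), Ldhb, a lactate dehydrogenase subunit, by 1.81 (adjusted p = 0.00116) and the aldolase Aldoa, which works in both directions of the pathway, by 1.62 (adjusted p = 0.000151). The hexokinase Hk2 fell by 0.60 (limma adjusted p = 0.022). Without Daxx-KO library 1 or 2 the list's count fell to 4 and 1, and Hk3 was called in every fit that left out a library. Ldhb was lost without either Daxx-KO library (limma adjusted p = 0.0575 and 0.128), Aldoa without Daxx-KO library 2 (adjusted p = 0.0629), and Hk2 without WT library 1 or either Daxx-KO library (adjusted p = 0.0652, 0.251 and 0.233).

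In untimed GMPs 31 passed, 8 rose and 6 fell, 45.2% called against 33% of all genes, with a median of 0.05 against −0.01. Ldhb rose by 2.78 (limma adjusted p = 1.46e-05), Hk3 by 1.05 (adjusted p = 5.75e-05) and the glucose phosphate isomerase Gpi1 by 0.57 (adjusted p = 0.000772). Hk2 fell by 1.26 (limma adjusted p = 0.000133), Tigar, which removes a phosphate from fructose 2,6-bisphosphate, by 1.26 (adjusted p = 0.0147) and the mutase Pgam1 by 0.93 (adjusted p = 0.00135). Hk3 and Ldhb thus rose in both untimed cell types and Hk2 fell in both. The count was 7 and 8 without WT library 1 or 2, and the call of Tigar was then lost (limma adjusted p = 0.081 and 0.141).

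Among genes used in gluconeogenesis alone, 4 of 7 were measured in the untimed tables and they did not rise together. In KLS cells G6pc3, a glucose-6-phosphatase made in most tissues, rose by 0.60 (limma adjusted p = 0.0448). In GMPs G6pc3 fell by 0.42 (limma adjusted p = 0.0351) and Pck2, the mitochondrial phosphoenolpyruvate carboxykinase, by 0.47 (adjusted p = 0.0441). In each cell type edgeR called 1 of the 4 and DESeq2 called 0, so these calls do not hold with every tool. Pcx, pyruvate carboxylase, was at −1.02 and −0.73 and was not called in either. The phosphofructokinase subunits, which run the opposite reaction, were at 0.32 for Pfkl, −0.38 for Pfkm and 0.30 for Pfkp in KLS cells and at 0.26, −0.25 and 0.08 in GMPs, with none called by limma.

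At 3 wpi limma called 0 of 34 pathway genes in KLS cells and 0 of 32 in GMPs between Daxx-KO and WT, with medians of −0.03 and −0.12. A p under 0.05 before adjustment was reached by 2 and 0 of them (1777 of 15200 and 433 of 13714 over all genes). Neither edgeR nor DESeq2 called any of the pathway genes. Pfkl, Pfkm and Pfkp were at 0.12, 0.00 and −0.20 in KLS cells and at 0.06, 0.20 and 0.08 in GMPs. Over all genes 0.257% and 0.0948% were called there, so counts of 0 do not set the list apart.

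In KLS cells labelled DKO against Daxx-KO, 8 rose and 3 fell of 34, 32.4% called against 15.4% of all genes, of which 8.17% rose and 7.22% fell. Pfkfb4, which makes fructose 2,6-bisphosphate, rose by 2.19 (limma adjusted p = 0.0019), Gpi1 by 1.82 (adjusted p = 0.0013), the ADP-dependent glucokinase Adpgk by 1.36 (adjusted p = 0.0321) and Pfkp by 0.80 (adjusted p = 0.00638). Ldhb fell by 1.77 (limma adjusted p = 0.00233), the aldolase Aldoc by 1.43 (adjusted p = 0.0428) and Pfkl by 0.85 (adjusted p = 0.00376), while Pfkm was at −0.34 and was not called. The count was 5, 6 and 4 without Daxx-KO library 1, Daxx-KO library 3 or DKO library 1, and Aldoc (limma adjusted p = 0.0537 to 0.308) and Adpgk (adjusted p = 0.0636 to 0.238) were lost in 4 such fits each that left out a library. In GMPs labelled DKO limma called 0 of 32, edgeR called 0 and DESeq2 1, and 2 had a p under 0.05 before adjustment, while Pfkl, Pfkm and Pfkp were at −0.26, −0.01 and 0.28. Of all genes there limma called 0.0583% and DESeq2 266 of 24527, and 1104 of 13714 had a p under 0.05 before adjustment.

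In the Pu.1 line limma called 0 of 40 in KLS cells, while 13 had a p under 0.05 before adjustment, edgeR called 1 and DESeq2 3, and the median was −0.58 against 0.12 over all genes. Of all genes limma called 0.81%, while 6071 of 23459 had a p under 0.05 before adjustment. For all genes edgeR called 1919 of 23459 and DESeq2 848 of 32542. Pfkl, Pfkm and Pfkp were at −1.54, −1.33 and −0.47 there, and the count was 16 without Pu.1-KO library a. In GMPs 3 rose and 6 fell of 37, 24.3% against 17.6% of all genes. The neuronal enolase Eno2 rose by 2.76 (limma adjusted p = 0.0291), the glucose transporter Slc2a3 by 1.57 (adjusted p = 1.35e-08) and Adpgk by 0.90 (adjusted p = 0.00355), and Ldhb fell by 1.54 (adjusted p = 1.12e-05), Pfkl by 1.03 (adjusted p = 0.000694) and Hk3 by 1.01 (adjusted p = 0.00165). Pfkm and Pfkp were at −0.40 and −0.49 and were not called. Without WT library a or b or without Pu.1-KO library b the count was 3, 0 and 22, and without WT library b all 6 named calls were lost (limma adjusted p = 0.0547 for Slc2a3 to 0.611 for Adpgk).

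**Figure D5:**
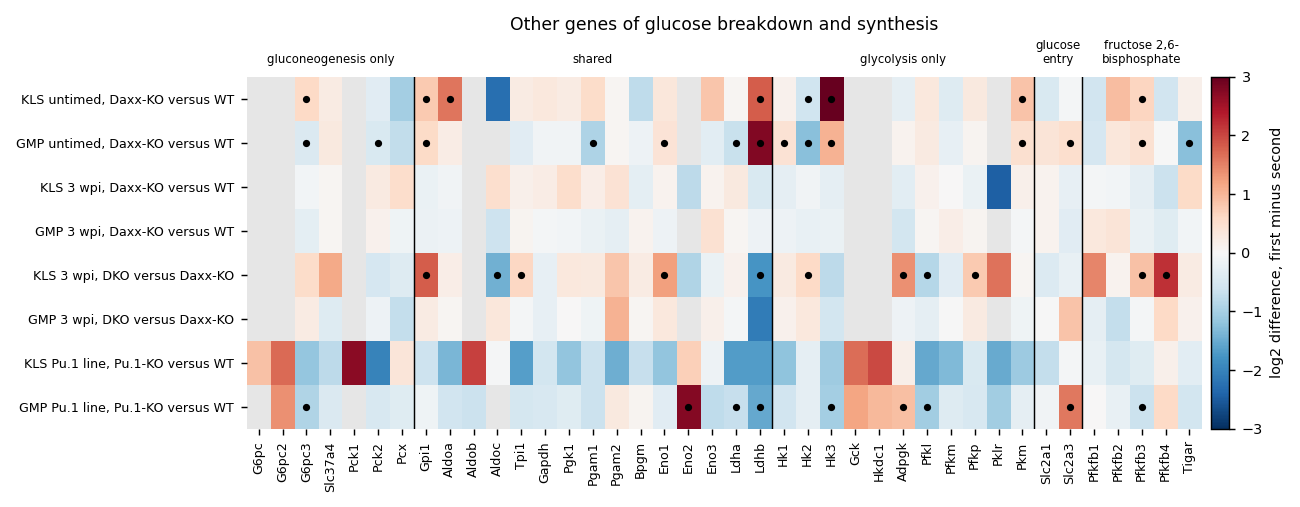
Log2 difference of the 40 other pathway genes in the 8 comparisons, with genes grouped by their part of the pathway, black dots on genes called by limma and grey cells for genes below the filter. The colour scale stops at 3 in either direction, and Hk3 in untimed KLS cells (3.39) lies past its end.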

How the data were processed

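Gene-level tables of 59 samples were used, 10 tables with 59 columns. Per the labels and methods, total RNA of sorted cells was made into libraries with low-input kits (the methods give Ovation SoLo for transplanted and SMARTer pico for steady-state cells, and the labels name the former for all samples), and the authors used CASAVA 1.8.4, cutadapt 1.13, STAR 2.5.3 and DESeq2 1.16.1 with mm10. The deposited signal is a normalized count, each read count divided by a size factor within its table, so tests stay within a table and folds at low values are pulled towards 0 by the pseudocount. Whole reads were recovered for 100.0% of values above 0 (tolerance 0.01), and 51548 genes had an exon length. The depth was 3045852 to 30136629 reads a library, and counting intervals cover counting error only. Where a column name carried only a mouse number, its genotype was read from the C (taken as control) or T ending of that number in the headers of the repeat tables. A further 52 per-sample columns, in tables of repeats, were not used, and columns of the authors' comparisons were not used.

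Genes with a mean of at least 10 were tested with limma 3.58.1 (trend) in R 4.3.3 on log2(value + 1) over all libraries of a table, with Benjamini-Hochberg adjustment over all genes and calls at 0.05, after a check on simulated data. Alternatives were pseudocounts of 0.5 and 5, no filter, TMM scaling, edgeR 4.0.16 and DESeq2 1.42.0 on recovered reads, a replicate block and leaving out each library. Members and lists were chosen with earlier results of these data known. Named genes were Fbp1 and Fbp2, every called pathway gene up to 6 a comparison or else the 3 largest rises and falls, the phosphofructokinase genes, the 5 nearest neighbours on each side, the genes of chromatin silencing and the 5 genes most like each member. G6pc3, Pck2, Pcx and the markers were otherwise chosen after their values were seen.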

Additional observations from a re-analysis of the deposited data

Results flagged for a closer look

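Of 10 sets of libraries checked for a value far from the others, 3 stood out, all in Fbp2. Where all other values of a set are 0, any read in the remaining library is flagged. No rate by chance is therefore given. At 24 wpi the KLS library of mouse d had 2.51 (3 reads) with 0 in the other 3 mice of unknown genotype, MPP4 of mouse a had 85.3 against 0 to 5.52 in the others, and LT-HSC library g had 24.1 against 0 in the others.

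Libraries whose genotype is not known here also held values above their WT libraries or above the limit of a count of 0. At 24 wpi these were Fbp1 at 617 in the KLS library of mouse b, where WT was 183 and 219, and at 683, 487 and 465 in the GMPs of mice a, c and d, where WT was 247 and 374. In the same GMPs Fbp2 was 18.3 in mouse b and 3.91 in mouse d, with 0 in both WT libraries. Among multipotent progenitors, which have no labelled WT column, Fbp2 was 66.0 and 12.3 in MPP3 of mice b and d and 85.3 and 5.52 in MPP4 of mice a and b.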

How the results depend on the processing

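The ratio of mean Fbp1 in Daxx-KO to WT kept its direction under each alternative, with log2 values of 5.27 to 6.05 (untimed KLS), 4.06 to 4.30 (untimed GMPs), 1.55 to 1.87 (KLS 3 wpi) and 1.71 to 2.11 (GMPs 3 wpi). Fbp1 in DKO against Daxx-KO was not called under any of them, at 0.00 to 0.50 in KLS cells and −1.48 to −0.68 in GMPs. In the Pu.1 line it was 0.94 to 1.54 in KLS cells, and in GMPs it passed the threshold with TMM scaling (0.83) and edgeR (0.85) and ran from 0.59 to 0.93 with a library left out.

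Pathway calls with a library left out ran from 1 to 9 (8 with all) in untimed KLS cells, 7 to 15 (14) in untimed GMPs, 4 to 11 (11) in KLS DKO against Daxx-KO, 0 to 1 (0) in GMP DKO against Daxx-KO, 0 to 16 (0) in KLS cells of the Pu.1 line and 0 to 22 (9) in its GMPs. DESeq2 gave 1 in GMP DKO against Daxx-KO. For KLS cells of the Pu.1 line no filter, TMM scaling and edgeR gave 1 each and DESeq2 gave 3. The cause was not tested.

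Among named genes Hk2 and 2010111I01Rik (untimed KLS), Ptch1 (untimed GMPs), Aldoc and Gm5141 (KLS DKO against Daxx-KO) and Eno2 (GMPs of the Pu.1 line) lost their calls without the filter, as did Aldoc, Gm5141 and Eno2 with edgeR and Ptch1 with DESeq2.

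Counts over all genes moved by more than 1.5 times for untimed KLS cells without the filter (1751 against 3118), for Daxx-KO against WT at 3 wpi with DESeq2 (332 against 39 in KLS cells, 67 against 13 in GMPs), for GMP DKO against Daxx-KO with pseudocount 5 (17), no filter (13), TMM (18), edgeR (20) and DESeq2 (266, against 8), and for KLS cells of the Pu.1 line with TMM (786), edgeR (1919) and DESeq2 (848, against 190), where the split of 110 higher and 80 lower became 586 and 200 with TMM, 1676 and 243 with edgeR and 577 and 271 with DESeq2. The median difference of all genes there was 0.12, and 0.49 without the filter, 0.26 with edgeR and 0.55 with DESeq2, and in the GMPs of that line it was 0.25 with DESeq2 and 0.21 without the filter. The highest count with a library left out there, 6905, was without Pu.1-KO library a. With 1 library left out they ran from 419 to 3290 (untimed KLS), 2162 to 4448 (untimed GMPs), 8 to 137 and 4 to 11 (KLS cells and GMPs at 3 wpi), 672 to 2481 and 0 to 71 (DKO against Daxx-KO in KLS cells and GMPs), and 13 to 6905 and 151 to 8163 (KLS cells and GMPs of the Pu.1 line).

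Replicate numbers did not pair the libraries: same-number deviations correlated at −0.01 in untimed KLS cells, −0.111 in untimed GMPs and −0.214 to 0.126 in KLS cells at 3 wpi. With a replicate block pathway calls were 8, 12 and 0 in Daxx-KO against WT and 6 in KLS DKO against Daxx-KO, Fbp1 in the latter was at 0.35, and calls over all genes were 3343, 3722, 66 and 1267. The numbers crossed in untimed GMPs, an alternative chosen after seeing the data, gave 4921 calls over all genes. The block lost the calls of Ptch1, Aldoc and Gm5141 among the named genes.

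Depth limits Fbp2: the WT libraries together held 0 to 3 reads in both untimed tables, both tables of the Daxx line at 3 wpi and the GMPs at 24 wpi.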
